A study of Rattus norvegicus with 7 samples.

Results

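The transcripts described here are those of 10 chemokine genes, chosen by symbol: Ccl2, Ccl7, Ccl11, Ccl20, Cxcl1, Cxcl2, Cxcl12, Cxcl14, Cxcl16 and Cx3cl1. All 10 were present among the 17246 genes of the count table, and 9 of them passed the low-count filter; Cxcl2 did not. RNA was sequenced from meibomian gland, the lipid-secreting gland of the eyelid, of wild-type female Sprague-Dawley rats aged 3 months. The 4 control libraries are labelled as untreated. The 3 UVB libraries came from rats whose upper eyelids had been shaved and irradiated with ultraviolet B at 300 mJ/cm2, in daily sessions of 5 min over 5 days. The sources do not say whether controls were shaved, how long after the last session the lids were taken, or whether each library is 1 animal, so p-values measure only the spread between these libraries. The glands were dissected as tissue, so each library also holds RNA from stroma, vessels, muscle and immune cells.

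Chemokines are small secreted or membrane-tethered proteins that bind G protein-coupled receptors on leukocytes and set the direction in which those cells move. The family is divided by the spacing of its first cysteines into CC, CXC and CX3C members. In skin and at the ocular surface some are made constantly by epithelium and stroma, among them Cxcl12 and Cxcl14, and others are induced by inflammatory signals through NF-kB and AP-1. Ccl2 and Ccl7 attract monocytes through the receptor CCR2, Ccl11 attracts eosinophils through CCR3, Cxcl1 and Cxcl2 attract neutrophils through CXCR2, and Ccl20 attracts cells bearing CCR6.

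Promoter sequence is shown for 4 genes, because Cxcl1 and Cxcl2 are neighbours with the same kind of motif, Ccl7 was called higher after UVB, and Cxcl14 was the most abundant of the 10. Of the 10 genes, 8 matched an entry in the RefSeq promoter table of assembly GRCr8; Ccl2 and Ccl11 did not. Each sequence covers the 250 bases before the transcription start, 5′ to 3′ on the gene's strand. Capitals mark matches, on either strand, to an NF-kB type motif (GGG, any 3 bases, then TTCC) or an AP-1 type motif (TGANTCA). The windows are chr14:17479322-17479571 (minus strand) for Cxcl1, chr14:17467256-17467505 (minus strand) for Cxcl2, chr10:67513845-67514094 (plus strand) for Ccl7 and chr17:8322900-8323149 (plus strand) for Cxcl14, all in GRCr8.
Cxcl1: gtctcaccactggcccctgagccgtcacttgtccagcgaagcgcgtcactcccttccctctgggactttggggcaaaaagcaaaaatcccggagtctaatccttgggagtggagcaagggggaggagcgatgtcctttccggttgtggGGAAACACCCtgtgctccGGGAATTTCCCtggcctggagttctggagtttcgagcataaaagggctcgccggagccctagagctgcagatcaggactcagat
Cxcl2: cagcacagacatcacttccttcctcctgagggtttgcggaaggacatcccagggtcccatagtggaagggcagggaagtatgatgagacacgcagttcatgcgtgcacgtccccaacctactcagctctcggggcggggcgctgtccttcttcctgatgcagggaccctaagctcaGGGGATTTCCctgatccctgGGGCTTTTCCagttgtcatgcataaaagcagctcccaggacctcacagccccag
Ccl7: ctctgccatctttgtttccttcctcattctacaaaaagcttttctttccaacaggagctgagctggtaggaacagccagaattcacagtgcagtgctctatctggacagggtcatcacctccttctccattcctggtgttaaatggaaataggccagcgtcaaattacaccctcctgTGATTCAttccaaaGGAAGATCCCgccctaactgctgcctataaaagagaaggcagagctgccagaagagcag
Cxcl14: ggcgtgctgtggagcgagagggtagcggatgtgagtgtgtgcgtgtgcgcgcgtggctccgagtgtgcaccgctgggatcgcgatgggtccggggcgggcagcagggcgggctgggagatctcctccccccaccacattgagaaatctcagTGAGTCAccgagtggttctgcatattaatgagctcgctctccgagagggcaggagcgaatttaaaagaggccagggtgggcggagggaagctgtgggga
The Cxcl1 window held 3 matches to the NF-kB type motif, of which 2 overlap each other on opposite strands, and the Cxcl2 window held 2. Ccl7 held 1 match to the NF-kB type motif, 49 bases before the start, and 1 to TGANTCA, and Cxcl14 held 1 match to TGANTCA and none to the NF-kB type motif. With Ccl20, which held 1 match, 4 of the 8 genes had the NF-kB type motif, against 4.53% of all 27457 promoter windows of this length in the table. Among these 4, Ccl7 was called higher after UVB, Cxcl1 and Ccl20 were not called, and Cxcl2 was not tested. Of 21 other chemokine ligand genes with a window, 5 had it too. Among these 5, Cxcl6 was called higher, Ccl6 was called lower, Ccl9 and Cxcl10 were not called, and Cxcl11 was not tested. TGANTCA was found in 2 of the 8 and in 6.36% of all windows. A STAT6 type motif (TTC, any 4 bases, then GAA) was in none of the 8 windows and in 6.29% of all. In the windows of the 8 genes no match to one of these motifs overlapped a match to another.

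Transcripts of lipid-secreting cells were present in every library of both groups. The summed level of 10 meibocyte markers ran from 93692 to 116251 CPM (counts scaled to library size with TMM factors) in controls and from 88949 to 109746 CPM after UVB. The lipid desaturase gene Scd alone made up most of that sum (71265 to 90848 CPM over all libraries). Of the 9 tested, Awat2, Plin2 and Awat1 were called lower and none higher, and Mogat1 was below the low-count filter. The direction was not uniform: 3 of the 9 lay above 0, among them Elovl3 (log2 fold change 0.54, edgeR adjusted p = 0.0506). Awat2, a wax ester synthase gene, measured 8471 to 9552 CPM in controls and 5453 to 5959 CPM after UVB, without overlap (log2 fold change -0.66, edgeR adjusted p = 0.00453). Library totals ran from 20680237 to 28784941 counts, so a chemokine at 1 CPM rests on fewer than 30 counts. In edgeR's quasi-likelihood test over 13709 genes, 1787 (13.0%) passed an adjusted p of 0.05, 863 higher (6.30%) and 924 lower (6.74%) after UVB.

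Measured per transcript length as TPM, Cxcl14 was by far the most abundant of the 10 in untreated gland, at 120 ± 5.86 TPM (SD, n = 4). Cxcl16 (50.9 ± 7.72 TPM), Cxcl12 (36.4 ± 3.21 TPM) and Cx3cl1 (13.9 ± 1.82 TPM) followed, and each of the first 3 was separated from the next in every control library. Cxcl1 (8.32 ± 6.93 TPM) overlapped both Cx3cl1 above it and Ccl11 (6.64 ± 1.27 TPM) below it. Ccl7 (2.44 ± 0.468 TPM), Ccl2 (2.23 ± 0.820 TPM), Ccl20 (1.26 ± 0.841 TPM) and Cxcl2 (0.463 ± 0.324 TPM) were scarce, and each overlapped its neighbour in this order. After UVB the order by mean was Cxcl14, Cxcl16, Cxcl12, Ccl2, Cx3cl1, Cxcl1, Ccl7, Ccl20, Ccl11 and Cxcl2, with Ccl2 at 13.2 ± 7.45 TPM (SD, n = 3) and Ccl11 at 1.61 ± 1.20 TPM. By mean TPM Ccl2 stood at rank 8 in controls and rank 4 after UVB, and Ccl11 at rank 6 and then rank 9. In the UVB libraries Ccl2 overlapped Cx3cl1 in TPM, and Ccl11 overlapped Ccl20 and Cxcl2.

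**Figure D1:**
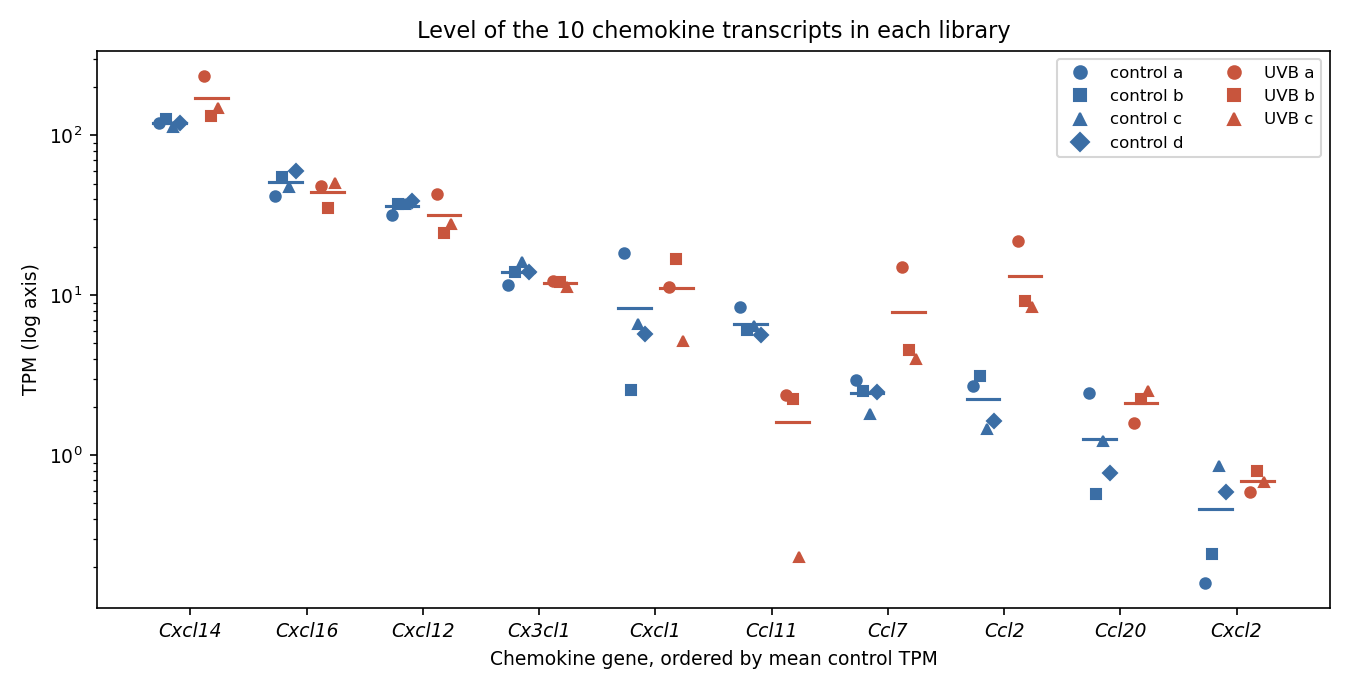
TPM of the 10 chemokine transcripts in each of the 7 libraries on a log axis, with controls in blue, UVB in red, a symbol for each library and a line at the group mean. Ccl2, Ccl7 and Cxcl14 have all 3 UVB points above all 4 control points, Ccl11 has all 3 below, and the other 6 genes overlap.

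Of the 9 chemokines tested, 2 were called higher after UVB (Ccl2 and Ccl7) and 1 lower (Ccl11), and 6 were not called. That is 33.3% of the 9 beside the 13.0% of all tested genes, for a set of genes named with earlier results of these data known. The groups did not overlap for 4 genes, 3 higher (Ccl2, Ccl7 and Cxcl14) and 1 lower (Ccl11). Over all tested genes 26.6% did not overlap: 12.8% were non-overlapping and higher and 13.8% non-overlapping and lower. The median log2 fold change of the 9 was 0.41, with 5 above 0, against a median of -0.0058 and 49.1% above 0 over all tested genes. Because these are bulk tissues, fewer cells of a type and less RNA per cell cannot be told apart in any of these comparisons.

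The monocyte-attracting ligands lay higher in every irradiated library. Ccl2 measured 1.07, 1.21, 0.552 and 0.641 CPM in controls a to d and 8.30, 3.68 and 3.27 CPM in UVB libraries a to c. Every UVB library was above every control, and UVB a was more than 2 times as high as the other UVB libraries. Averages of 0.870 ± 0.323 CPM without UVB (SD, n = 4) and 5.08 ± 2.79 CPM with it (SD, n = 3) gave 2.55 as the log2 fold change (SE 0.403, 95% interval 1.65 to 3.46, edgeR adjusted p = 0.00702). The call held in all 18 alternatives, with an adjusted p of at most 0.0253, and without UVB a the log2 fold change was 2.02.

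Ccl7 lies next to Ccl2 in GRCr8 and binds overlapping receptors. It measured 1.21, 1.03, 0.724 and 1.03 CPM in the controls and 6.02, 1.90 and 1.62 CPM in UVB a to c. Again no UVB library overlapped the controls, and UVB a stood far above the other two. Averages of 0.998 ± 0.202 CPM without UVB (SD, n = 4) and 3.18 ± 2.46 CPM with it (SD, n = 3) gave 1.66 as the log2 fold change (SE 0.470, 95% interval 0.60 to 2.73, edgeR adjusted p = 0.0498). This value sat at the threshold: it was lost in 13 of 17 alternatives (adjusted p up to 0.128), and without UVB a the log2 fold change was 0.83 (adjusted p = 0.108).

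Whether Ccl7 and Ccl2 moved by the same factor was tested on their log2 ratio within each library. In controls a to d the ratio of Ccl7 to Ccl2 was 0.16, -0.22, 0.35 and 0.61 on the log2 scale, and in UVB a to c it was -0.46, -0.93 and -0.98. All 3 UVB values lay below all 4 control values, so Ccl2 exceeded Ccl7 in CPM in each irradiated library, while the controls lay on both sides of equality. The mean ratio differed by -1.01 (exact two-sided permutation test over 35 splits, p = 0.0571, 0.171 adjusted over 3 ratios). This design cannot give a p below 0.0286, or below 0.0857 for 1 of 3 ratios after adjustment, and the difference did not pass.

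Some markers of monocytes and macrophages were higher after UVB along with Ccl2 and Ccl7, and others were not. Of 11 such markers 10 were tested and 6 were called higher, beside 6.30% of all tested genes. Their summed level was 90.6 to 157 CPM in controls and 146 to 249 CPM after UVB. Cd163, a scavenger receptor of tissue macrophages, had the largest log2 fold change among them (3.50, SE 0.400, adjusted p = 0.00402). Its level was 35.1, 14.8 and 38.8 CPM in UVB a to c. Mrc1, C1qb, C1qc, Cd14 and Fcgr1a were the other 5; the calls of Fcgr1a, Mrc1 and C1qc were lost in 13, 7 and 6 of 18 alternatives. Not called were Csf1r, the receptor for macrophage growth factor (-0.0093, adjusted p = 0.985), Adgre1 (0.11, adjusted p = 0.870), C1qa (0.85, adjusted p = 0.114) and the lysosomal marker Cd68 (-0.41, adjusted p = 0.186; 26.1 ± 6.35 CPM in controls and 19.7 ± 2.18 CPM after UVB). None of these markers was at 0 in every library, and their part in the Ccl2 and Ccl7 result was not tested. Fibroblast markers, from cells that can also make Ccl2, were called higher for 4 of 6 (Dcn, Lum, Pdgfra and Pdgfrb), with summed levels of 1610 to 2571 CPM in controls and 1669 to 2708 CPM after UVB. Most of that sum was the collagen gene Col1a1, which had a log2 fold change of -0.48 (adjusted p = 0.260) at 1748 ± 387 CPM in controls and 1254 ± 442 CPM after UVB. Their part was not tested either.

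The eosinophil attractant Ccl11, the gene after Ccl7 on rat chromosome 10, went the other way. It measured 4.39, 3.08, 3.21 and 2.91 CPM in controls a to d and 1.19, 1.16 and 0.116 CPM in UVB a to c. All UVB libraries were below all controls, and UVB c, with 3 counts, was far below the other two. The transcript fell by 2.06 on the log2 scale (SE 0.520, 95% interval -3.25 to -0.88, edgeR adjusted p = 0.0350), the untreated mean being 3.40 ± 0.673 CPM (SD, n = 4) and the irradiated mean 0.821 ± 0.611 CPM (SD, n = 3). The call held under each alternative that kept all 7 libraries and without UVB c (-1.53, adjusted p = 0.0157). It was lost without any one of the controls or without UVB a or UVB b, at adjusted p-values of 0.0565 to 0.0777.

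Ccl24, which binds the same receptor as Ccl11, was also lower after UVB. It measured 0.980 to 1.77 CPM in the controls and 0.284, 0.271 and 0.655 CPM in UVB a to c, with no overlap (log2 fold change -1.70, SE 0.394, edgeR adjusted p = 0.0241; lost in 4 of 17 alternatives, up to 0.0790). Eosinophil markers were near the floor in both groups: of 4 measured (Epx, Ccr3, Siglec5 and Il5ra) none passed the filter, and their summed level was 0.280 to 0.385 CPM in controls and 0.426 to 0.925 CPM after UVB. The CCR3 gene itself had at most 2 counts in any library. Upstream of eotaxin genes in many tissues is the interleukin 4 receptor, whose part here was not tested. Il4r rose by 0.51 on the log2 scale (SE 0.105, edgeR adjusted p = 0.0165), a call lost in 1 of 18 alternatives. Its untreated mean was 28.6 ± 3.34 CPM (SD, n = 4) and its irradiated mean 40.7 ± 4.16 CPM (SD, n = 3). Stat6 was not called (-0.14, SE 0.0649, edgeR adjusted p = 0.177), and Il13 had at most 1 count in any library.

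Neutrophil-attracting Cxcl1 varied widely within both groups. It measured 9.85, 1.35, 3.42 and 3.08 CPM in controls a to d and 5.83, 9.02 and 2.74 CPM in UVB a to c. Control a was the highest of all 7 libraries, and the groups overlapped across most of their range. The log2 fold change was 0.41 (SE 0.648, 95% interval -1.10 to 1.93, edgeR adjusted p = 0.720). The value rested on single libraries: it was 1.15 without control a and -0.046 without UVB b, with no call in either fit.

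Cxcl2, the neighbour of Cxcl1, was the scarcest of the 10. It had 2, 3, 14 and 8 counts in controls a to d and 7, 12 and 10 in UVB a to c, which is 0.265 ± 0.181 CPM (SD, n = 4) and 0.394 ± 0.0668 CPM (SD, n = 3). The groups overlapped, and the gene did not pass the low-count filter. Fitted without that filter, it had a log2 fold change of 0.52 (SE 0.538, 95% interval -0.66 to 1.70, edgeR adjusted p = 0.575). The log2 ratio of Cxcl2 to Cxcl1 was -3.51 ± 1.54 across controls (SD, n = 4) and -3.49 ± 0.79 across UVB libraries (SD, n = 3), with p = 0.971 by exact permutation. With 3 ratios tested in 7 libraries, no difference in this ratio alone could have passed after adjustment.

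Another ligand of the neutrophil receptor did change. Cxcl6 measured 2.10, 0.933, 0.310 and 0.897 CPM in controls and 6.26, 4.88 and 2.70 CPM after UVB, without overlap (log2 fold change 2.15, SE 0.516, edgeR adjusted p = 0.0313). Leaving out control b, control d, UVB a or UVB b took the adjusted p past the threshold, up to 0.0869. Its promoter window holds the same overlapping pair of NF-kB type matches as that of Cxcl1, GGGAATTTCC on the gene's strand and, for the other strand, GGAATTTCCC starting 1 base later. The window of Ccl6, which was called lower after UVB, also held 1 match. Cxcl3, the third close relative, had 1, 0, 14 and 3 counts in controls and 37, 24 and 11 after UVB (log2 fold change 2.44, SE 0.803, adjusted p = 0.0801). Reads of these similar genes could be shared, although no count of Cxcl1, Cxcl2, Cxcl3 or Cxcl6 was fractional. Of 9 neutrophil markers, 8 were measured and 4 tested, and Csf3r (log2 fold change 3.16, SE 0.488, adjusted p = 0.00608) and S100a9 (0.46, SE 0.116, adjusted p = 0.0333) were called higher, the latter a call lost in 7 of 18 alternatives. Ncf1 had a log2 fold change of -0.12 (adjusted p = 0.829), and Fpr1, too scarce to test, had 5, 12, 9 and 3 counts in controls and 0, 1 and 4 after UVB. The summed level of the 8 was 258 to 283 CPM in controls and 302 to 375 CPM after UVB, mostly S100a8 and S100a9, which keratinocytes also make. The share of all tested genes called higher was 6.30%. Elane was at 0 in every library, and the part of the neutrophil markers in the Cxcl6 result was not tested.

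Ccl20, an epithelial chemokine, measured 1.21, 0.280, 0.586 and 0.385 CPM in controls and 0.758, 1.12 and 1.23 CPM after UVB. Control a lay between the highest UVB libraries and the other controls lay below all of them, so the groups overlapped. The log2 fold change was 0.77 (SE 0.455, 95% interval -0.25 to 1.79, edgeR adjusted p = 0.293), and it reached 1.28 without control a, still without a call. Its receptor gene Ccr6 was at 1.49 ± 0.449 CPM (SD, n = 4) and 1.98 ± 0.305 CPM (SD, n = 3), for an edgeR log2 fold change of 0.41 (SE 0.284, adjusted p = 0.375).

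**Figure D2:**
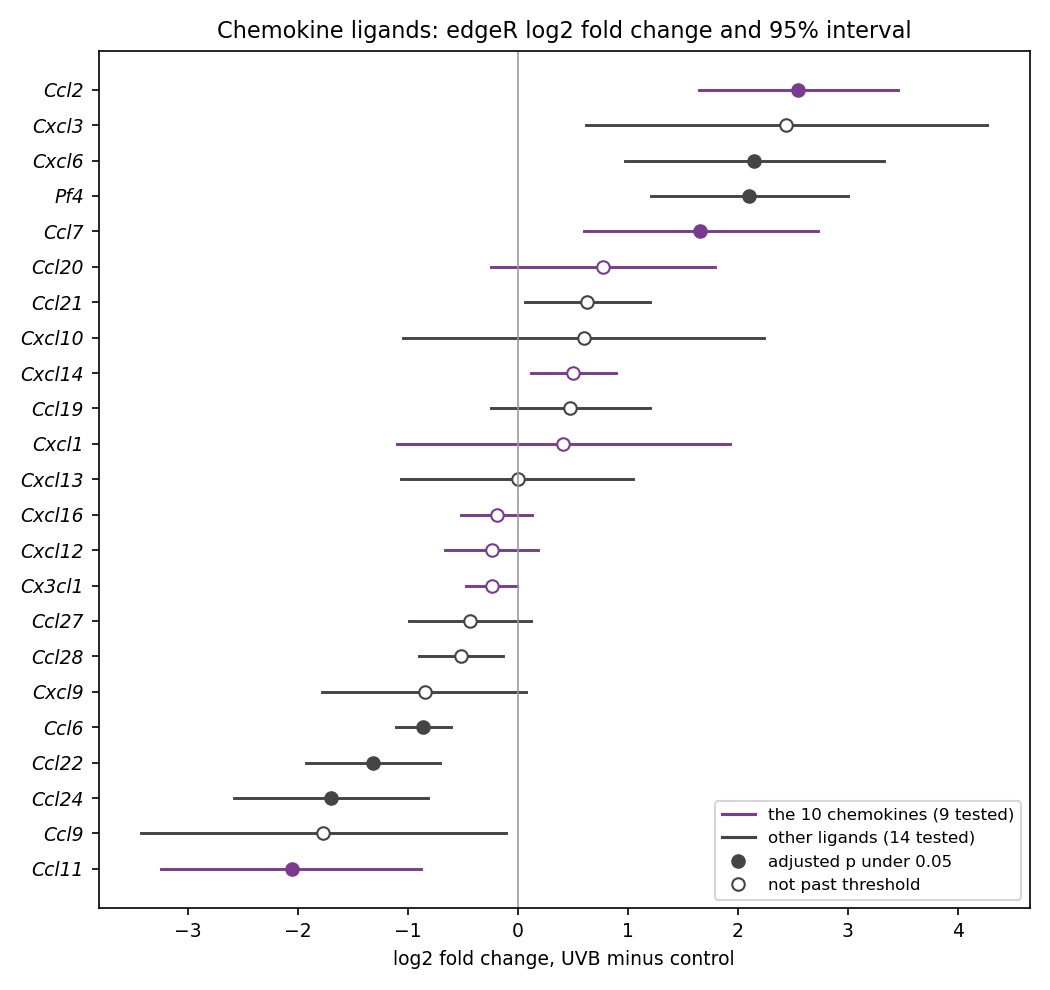
edgeR log2 fold change (UVB minus control) with its 95% interval for the 23 chemokine ligands tested, ordered by value, with the chemokines described here in purple, other ligands in grey and filled points where the adjusted p was under 0.05. Ccl2 is at the top at 2.55 and Ccl11 at the bottom at -2.06, and the intervals of Cxcl16 and Cxcl12 include 0.

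None of the constitutively made chemokines passed the threshold with all 7 libraries. Cxcl14, made by epithelium in untreated skin, measured 16.5, 17.0, 15.2 and 16.5 CPM in controls a to d and 31.3, 18.7 and 19.5 CPM in UVB a to c. The UVB libraries lay above all controls, and UVB a was far above the other two, which lay close to the highest control. The log2 fold change was 0.50 (SE 0.170, 95% interval 0.12 to 0.89) and did not pass the threshold (edgeR adjusted p = 0.0848). DESeq2 called it (0.51, adjusted p = 0.0349), and without UVB a the value was 0.23 (edgeR).

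Cxcl12, the stromal ligand of CXCR4, measured 77.0, 80.4, 80.1 and 90.0 CPM in controls a to d and 94.7, 54.7 and 58.6 CPM in UVB a to c. UVB a was the highest of all libraries and UVB b and c were the lowest, so the UVB group spanned the controls. With all libraries the log2 fold change was -0.24 (SE 0.181, 95% interval -0.66 to 0.18, edgeR adjusted p = 0.414). Without UVB a it was -0.53 and passed the threshold (adjusted p = 0.0104). Its receptor genes were not called: Cxcr4 had a log2 fold change of 0.20 (SE 0.164, 95% interval -0.17 to 0.57, adjusted p = 0.455) and the scavenging receptor gene Ackr3 one of -0.022 (SE 0.262, 95% interval -0.63 to 0.58, adjusted p = 0.969). Ackr3 was also highest in UVB a, at 31.7 CPM against 17.9 and 15.3 CPM in UVB b and c.

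UVB a thus had the highest CPM of the 3 UVB libraries for 5 of the 10 chemokines (Ccl2, Ccl7, Ccl11, Cxcl12 and Cxcl14), UVB b for 3 and UVB c for 2. For Ccl11 the margin over UVB b was small (1.19 against 1.16 CPM). The lowest value was in UVB a for 2 of the 10, in UVB b for 3 and in UVB c for 5. The same count over all genes was not made. Il6 was also highest in UVB a, with 82 counts there against 15 and 12 in UVB b and c. Without UVB a, when Cxcl2 also passed the filter, 1 of the 10 chemokines was called higher (Ccl2) and 1 lower (Cxcl12).

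**Figure D3:**
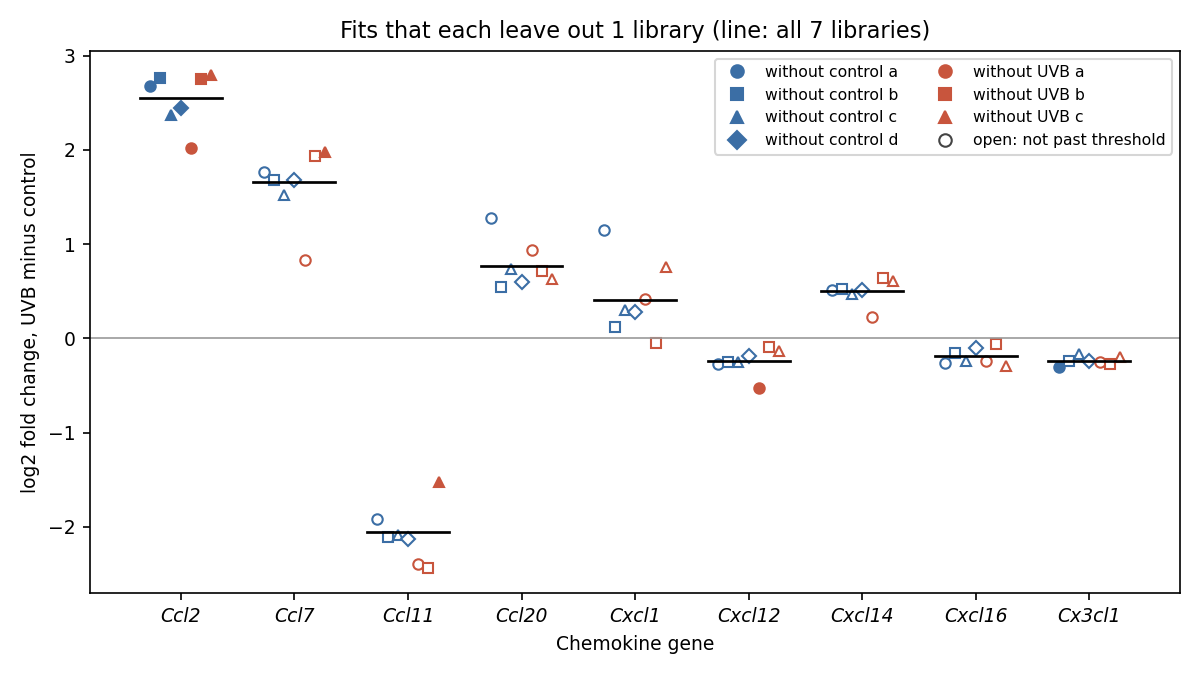
edgeR log2 fold change (UVB minus control) of the 9 tested chemokines in the 7 fits that each leave out 1 library, with the line at the value from all 7 libraries, and open symbols where the adjusted p was 0.05 or more. Ccl2 stays between 2.02 and 2.79 with every symbol filled, Ccl7 drops to 0.83 without UVB a, and Cxcl12 reaches -0.53 in that fit.

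The membrane-anchored chemokines Cxcl16 and Cx3cl1 carry their chemokine domain on a mucin-like stalk, from which the proteases ADAM10 and ADAM17 release it. Cxcl16 measured 44.5, 56.1, 48.2 and 62.0 CPM in controls and 49.0, 37.4 and 51.8 CPM after UVB, with overlapping groups. Its log2 fold change was -0.19 (SE 0.142, 95% interval -0.52 to 0.13, edgeR adjusted p = 0.401). Its counts were fractional in all 7 libraries, so its level is uncertain. It overlaps Zmynd15 in GRCr8, and whether reads were shared with that gene was not tested.

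Cx3cl1 measured 21.9, 26.1, 29.5 and 25.9 CPM in controls and 22.2, 22.8 and 20.8 CPM after UVB. Control a lay among the UVB libraries and the other 3 controls lay above them. The log2 fold change was -0.24 (SE 0.102, 95% interval -0.47 to -0.012) with an edgeR adjusted p of 0.149, and without control a it was -0.31 and passed (adjusted p = 0.0470). Within a library the log2 ratio of Cxcl16 to Cx3cl1 was 1.02 ± 0.23 across controls (SD, n = 4) and 1.06 ± 0.31 across UVB libraries (SD, n = 3), with p = 0.771 by exact permutation.

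Neither releasing protease gene was called. Adam10 was at 76.8 ± 3.00 CPM (SD, n = 4) and 83.3 ± 4.49 CPM (SD, n = 3), and edgeR estimated 0.12 for its log2 fold change (SE 0.0619, adjusted p = 0.240), and Adam17 had -0.028 (SE 0.0754, 95% interval -0.20 to 0.14, adjusted p = 0.837). The receptor genes of Cxcl16 and Cx3cl1, Cxcr6 (-0.061, SE 0.192, adjusted p = 0.864) and Cx3cr1 (0.13, SE 0.372, adjusted p = 0.847), were not called. Among 10 proteases known to cut chemokines, 3 were called, all higher: Mmp2, Mmp9 and Mmp13. Mmp2 rose by 1.10 on the log2 scale (SE 0.103, adjusted p = 0.00107), the untreated mean being 144 ± 16.7 CPM (SD, n = 4) and the irradiated mean 309 ± 33.3 CPM (SD, n = 3). Mmp9 (2.77, SE 0.400, adjusted p = 0.00498) and Mmp13 (1.89, SE 0.405, adjusted p = 0.0208) rose from lower levels, and the Mmp13 call was lost in 3 of 18 alternatives. Mmp12, another metalloproteinase, had -0.94 (SE 0.575, adjusted p = 0.319), at 6.34 ± 4.90 CPM in controls and 3.28 ± 1.59 CPM after UVB. The list had a median of 0.12, and 6.30% of all tested genes were called higher.

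Set against the rest of the ligand family, the 10 chemokines held about the same part of the summed ligand TPM in both groups. Over 36 ligand genes that share averaged 51.1% ± 4.24 across the controls (SD, n = 4) and 51.7% ± 0.894 across the UVB libraries (SD, n = 3). The sum itself differed, at 418 to 512 TPM in controls and 745, 465 and 509 TPM in UVB a to c, so a share can fall without a lower level. Inside it, Ccl2 went from between 0.303% and 0.650% in the controls to between 1.67% and 2.92%, and Ccl11 from between 1.10% and 2.03% to between 0.0452% and 0.482%. Cxcl12 took 7.48% to 7.81% in controls and 5.30% to 5.81% after UVB, and Cxcl14 took 23.5% to 28.6% and then 28.6% to 31.6%. In UVB a Cxcl12 had a share of 5.81% although its TPM there, 43.3, was the highest of all libraries. The other large contributors were Ccl21, which guides cells bearing CCR7 into lymphatics (22.3% ± 4.09 and 29.2% ± 1.37), and the rodent chemokine Ccl6 (19.8% ± 2.09 and 9.46% ± 2.06). In CPM the groups overlapped for Ccl21, and it was not called (log2 fold change 0.63, SE 0.244, edgeR adjusted p = 0.133).

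**Figure D4:**
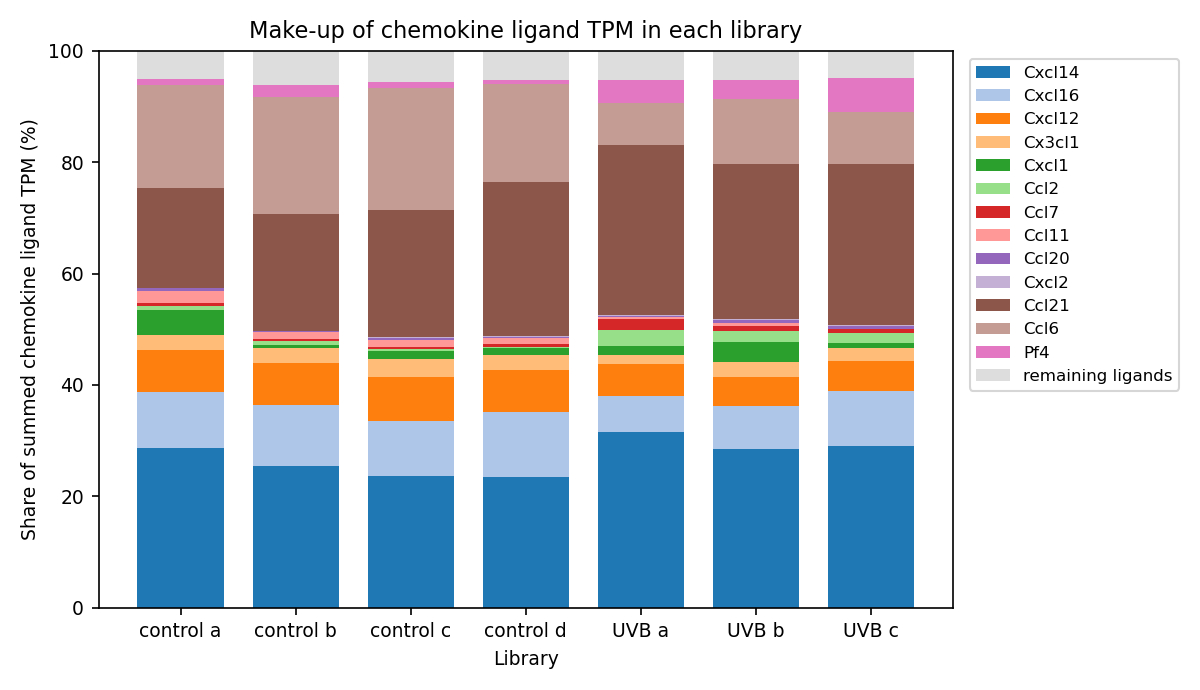
Share of summed chemokine ligand TPM, in percent, taken by each of the 10 chemokines, by Ccl21, Ccl6 and Pf4, and by all remaining ligands, as stacked bars for the 7 libraries. Cxcl14 is the largest of the 10 in every bar, and the Ccl6 segment shrinks from 19.8% to 9.46% by mean between controls and UVB.

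Of the 26 other ligands, 14 were tested and 5 were called, 2 higher and 3 lower, with a median log2 fold change of -0.22. Calls over all tested genes came to 13.0%. Besides Cxcl6, Pf4 (platelet factor 4, also made by macrophages) rose by 2.10 on the log2 scale (SE 0.391, edgeR adjusted p = 0.0132), the untreated mean being 1.87 ± 1.08 CPM (SD, n = 4) and the irradiated mean 8.03 ± 2.53 CPM (SD, n = 3). Besides Ccl24, the abundant Ccl6 fell from 87.0 ± 11.5 CPM to 48.0 ± 4.40 CPM (log2 fold change -0.86, SE 0.112, adjusted p = 0.00362). Ccl22, a CCR4 ligand made by dendritic cells and macrophages, fell from 3.59 ± 1.07 CPM to 1.44 ± 0.178 CPM (-1.32, SE 0.273, adjusted p = 0.0163). Its call was lost without UVB c (-1.22, adjusted p = 0.0519). Of the 12 ligands not tested, 5 had at most 3 counts in every library, among them Ccl26 with none.

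Among the chemokine receptors examined, 18 of 22 listed were measured, 11 were tested and 1 was called, Ccr7, which leads dendritic and T cells toward its ligand Ccl21. Ccr1, Ccr2, Cxcr2 and Ackr1 were not analysed here, so the main receptors of Ccl2, Ccl7, Cxcl1 and Cxcl2 have no value. Ccr7 measured 1.31, 0.980, 0.793 and 1.07 CPM in controls and 1.90, 1.63 and 2.20 CPM in UVB a to c. All UVB libraries lay above all controls. The log2 fold change of Ccr7 was 0.88 (SE 0.250, edgeR adjusted p = 0.0464), and its call was lost in 9 of 17 alternatives (adjusted p up to 0.134). The median of the 11 was 0.13, and 13.0% of all tested genes were called.

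Among cytokines, cytokine receptors and Toll-like receptors that act upstream of chemokine genes, some were called higher and none lower. Of 22 listed, 19 were measured, 16 were tested and 5 were called, all higher, with a median log2 fold change of 0.31. Over all tested genes 6.30% were called higher. Of the 16, 13 lay above 0. Il33 (-0.44, edgeR adjusted p = 0.0994), Tlr2 (-0.48, adjusted p = 0.168) and Il1a (-0.37, adjusted p = 0.410) lay below 0 and were not called. For Il33 all 3 UVB libraries lay below all controls. Il6 had 1, 2, 0 and 0 counts in the controls and 3.89, 0.581 and 0.462 CPM in UVB a to c, at least 12.8-fold higher when the controls are set to a floor of 3 counts per library (edgeR adjusted p = 0.0247). Without UVB a that bound was 4.08-fold, and the call was lost in 6 of 17 alternatives. Osm, a leukocyte cytokine of the same family, had 1 to 6 counts per control and 13 to 23 after UVB (log2 fold change 2.69, SE 0.613, adjusted p = 0.0227; lost in 3 of 15 alternatives). Its receptor gene Osmr rose by 0.61 on the log2 scale (SE 0.0720, adjusted p = 0.00238), the untreated mean being 22.7 ± 1.02 CPM (SD, n = 4) and the irradiated mean 34.7 ± 1.83 CPM (SD, n = 3). Il1r1, the interleukin 1 receptor gene, had 0.60 (SE 0.163, adjusted p = 0.0409), a call lost in 10 of 18 alternatives. Il1b itself had 0.78 (SE 0.321, adjusted p = 0.139).

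**Figure D5:**
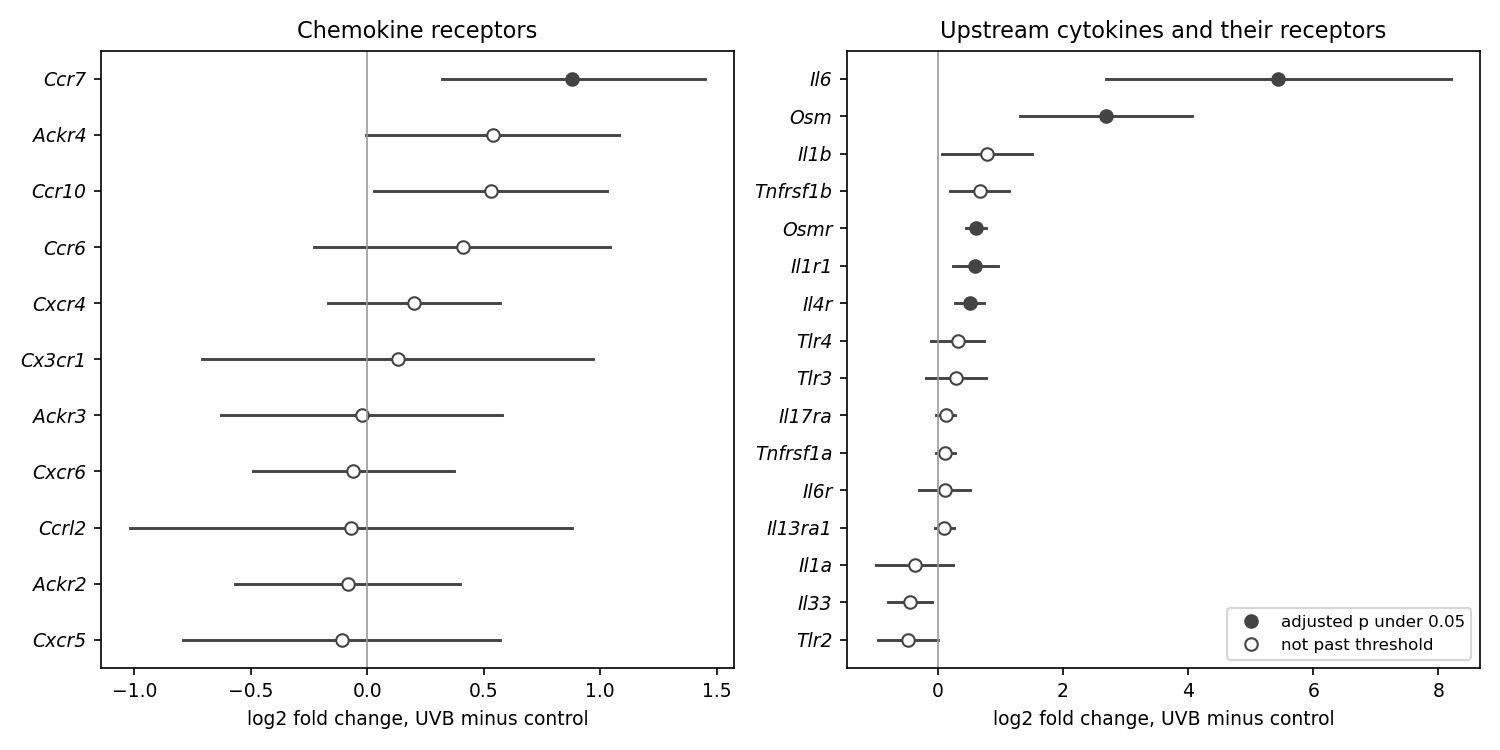
edgeR log2 fold change (UVB minus control) with its 95% interval for 11 chemokine receptors (left) and 16 upstream cytokines, cytokine receptors and Toll-like receptors (right), filled where the adjusted p was under 0.05. Ccr7 is filled on the left, and Il6, Osm, Osmr, Il1r1 and Il4r on the right, where the fitted value of Il6 depends on the prior count because its controls hold at most 2 counts.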

How the data were processed

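RNA-seq libraries of rat meibomian gland (4 control, 3 UVB) were compared. Expected counts per gene were deposited by the authors in 1 table, with 12.5% of values not whole, and TPM values in another, which sum to between 82.0% and 84.1% of the full total per library. Per the submitters' processing notes, FastQC, Trimmomatic, DRAGEN, Picard and the build rn7 were used; what each did, the gene annotation and strand handling are not given in the sources used here. Unquoted commas moved cells sideways in 2281 rows; values were therefore counted back from the row's last cell, and 5 rows without a value were left out. Count and TPM tables were matched over 11951 well-measured genes, of which 10 were off by over 1.5 times. Columns name groups but not replicate numbers, so libraries carry letters. Replicates all differed beyond sampling noise (chi-square per degree of freedom 10.9 or more).

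Counts were rounded and tested in edgeR 4.0.16 (R 4.3.3): filterByExpr, TMM, robust quasi-likelihood, two-sided, Benjamini-Hochberg over 13709 genes, threshold 0.05. Standard errors were derived from the F statistic. CPM uses the TMM library sizes. Ratios used log2 CPM with a prior count of 2. Alternatives tried were limma-voom (limma 3.58.1), DESeq2 1.42.0, other scalings and filters, no robust estimation, limma on log2(TPM + 1) or log2(TPM + 0.1), and each library left out. Code was tested on simulated counts. The genes and lists (6 pathway and 13 marker lists, 207 entries, 17 not analysed here, 2 matched through another symbol) were chosen with earlier results of these data known; 1 receptor and 1 Schwann cell marker are not reported here. Named genes were the 10 chemokines, pathway genes past the threshold (or the 3 smallest p of a list with none) and immune markers past it. Csf1r, Adgre1, C1qa, Cd68, Ncf1, Fpr1, Cd3e, Cd3g, Cd3d, Mmp12, Cxcl3, Ccl21, Ccl26, Ccr3, Ccr6, Cxcr4, Ackr3, Cxcr6, Cx3cr1, Adam10, Adam17, Il1b, Ptprc and the dendritic, Schwann, fibroblast and meibocyte markers given by name fall outside that rule and were named after their values were seen. The same holds for Des, Stat6, Il13, Il1a, Il33, Tlr2, Ccl9, Cxcl10 and Cxcl11. RefSeq GRCr8 served for promoter sequence, names and gene order.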

Additional observations from a re-analysis of the deposited data

Results flagged for a closer look

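Among 40 genes whose CPM was compared within the 4 controls, 1 had a library far from the other 3, and chance alone sets about 1 in 20 such groups apart. Cd8a, a marker of cytotoxic T cells, stood at 0.140 CPM in control a; the remaining controls held 0.256 to 0.280 CPM, so the gap took up 0.831 of the range of all 4. It had 3 counts in that library. None of the 10 chemokines was set apart in this way, and the UVB group, with 3 libraries, is too small for the comparison.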

How the results depend on the processing

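No paired analysis was possible because no column can be tied to a labelled replicate number. Over the named genes that were tested and their alternatives (683 values), 570 kept direction and side of the threshold, 109 lost the call, 3 gained it and 1 changed sign. The count of all genes called was 1137 under log2(TPM + 1) without a filter and 851 to 1898 with 1 replicate left out. Chemokines called higher numbered 1, Ccl2, under limma-voom (1), a mean count of at least 50 (1; Ccl7 is then not tested), no low-count filter (1), library size alone (1), upper quartile factors (1) and the 3 TPM fits (1 each), and 1 to 2 with a replicate left out. Chemokines called lower numbered 0 to 1 with a replicate left out; where edgeR gave 0, 1 had an unadjusted p under 0.05, and DESeq2 with all libraries gave 1. The 1 was Cx3cl1 without control a, Cxcl12 without UVB a and Ccl11 without UVB c. With a replicate left out, other ligands called ran from 3 to 5, receptors 0 to 1 (where edgeR gave 0, 1 or 2 had an unadjusted p under 0.05), upstream cytokines and receptors 2 to 4, transcription regulators 2 to 5 and receptor signalling genes 0 to 1. Receptors called were 0 without the low-count filter in edgeR (3 of 18 with an unadjusted p under 0.05), 0 at a mean count of at least 50 (1 of 7; Ccr7 is then not tested), and 0 in limma under log2(TPM + 1) and 0 under log2(TPM + 0.1) (2 of 7 in each). Upstream genes called were 3 at a mean count of at least 50, 2 under log2(TPM + 1), 3 under log2(TPM + 0.1) and 2 under log2(TPM + 1) without a filter. DESeq2 called 6 transcription regulators and 3 receptor signalling genes, and limma on log2(TPM + 1) without a filter called 0 of the latter (3 of 15 with an unadjusted p under 0.05). With a replicate left out, the log2 fold change of Cxcl1 ran from -0.046 to 1.15, the change in the Cxcl2 to Cxcl1 ratio from -0.76 to 0.31 and that in the Cxcl16 to Cx3cl1 ratio from -0.093 to 0.21, with no call. Causes of these shifts were not tested, except where a filter removed a gene. Depth limits Cxcl2 most, at 2 to 14 counts per library.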

Other observations

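Of 20 listed transcription factors and regulators that act on chemokine genes, 19 were tested and 3 were called, a share near the 13.0% of all tested genes, with a median log2 fold change of 0.036. Bcl3, a nuclear partner of NF-kB subunits, rose by 1.18 on the log2 scale (SE 0.134, edgeR adjusted p = 0.00230), the untreated mean being 8.59 ± 1.37 CPM (SD, n = 4) and the irradiated mean 19.6 ± 1.83 CPM (SD, n = 3). Fosl1, an AP-1 subunit, rose by 0.84 (SE 0.173, adjusted p = 0.0159), with fractional counts in all 7 libraries. Its call was lost in 2 of 18 alternatives. Irf1, a factor of the interferon response, fell by 0.74 (SE 0.116, adjusted p = 0.00656), from 50.3 ± 7.29 CPM to 30.1 ± 2.11 CPM. Every UVB library lay beyond every control for these 3 genes.

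Of 15 measured genes that carry signals inside the cell from chemokine receptors, 1 was called, beside 13.0% of all tested genes. Grk5, a kinase that desensitises G protein-coupled receptors, rose by 0.69 on the log2 scale (SE 0.157, edgeR adjusted p = 0.0226), the untreated mean being 5.03 ± 0.574 CPM (SD, n = 4) and the irradiated mean 8.14 ± 1.32 CPM (SD, n = 3). It failed the threshold in 5 of 18 alternatives (adjusted p up to 0.0655).

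Other cell types that dissected gland can hold showed mixed movement of their markers. For comparison, 6.30% of all tested genes were called higher and 6.74% lower. Mast cell markers were called higher for 2 of 5 tested, Tpsab1 (log2 fold change 1.72, SE 0.288, edgeR adjusted p = 0.00770) and Cpa3 (1.09, SE 0.246, adjusted p = 0.0223; lost in 3 of 18 alternatives), with a summed level of 37.6 to 54.0 CPM in controls and 60.0 to 64.1 CPM after UVB. T cell markers were called higher for 2 of 4 tested, Cd8a and Cd2 (the latter lost in 6 of 17 alternatives), at summed levels of 3.03 to 4.01 CPM and 3.48 to 6.40 CPM. The CD3 genes did not share that direction: Cd3e had a log2 fold change of -0.55 (adjusted p = 0.329) and Cd3g one of -0.27 (adjusted p = 0.751), and Cd3d, not tested, had 3 to 14 counts in controls and 3 to 8 after UVB. None of 4 tested leukocyte markers was called (0 with an unadjusted p under 0.05 in edgeR), and the adjusted p of Ptprc, the CD45 gene, was 0.942. Of 6 tested dendritic or Langerhans cell markers 2 were called higher and 1 lower, the Langerhans cell gene Cd207 (-1.24, SE 0.247, adjusted p = 0.0167). Basal keratinocyte markers were called higher for 3 of 6 and endothelial markers for 2 of 5. Skeletal muscle had 1 of 6 called higher, Des, which was the 1 marker of the 6 above 0, and their median log2 fold change was -0.18. Schwann cell markers had 1 of 4 called lower, S100b. Of these 4, 0 lay above 0 and 4 had an unadjusted p under 0.05 in edgeR, with a median of -0.57.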
